A study of Homo sapiens with 4 samples.

Results

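The genes described here are 10 stress-linked regulators: the basic leucine zipper (bZIP) transcription factors ATF4, ATF5, ATF3, DDIT3 (whose protein is called CHOP), CEBPB, CEBPG and ATF6, and the pseudokinase genes TRIB1, TRIB2 and TRIB3. They were taken by symbol from a table of 16057 genes, and all 10 symbols were present once. The table gives transcript levels from RNA sequencing of the human cell line MM.1S, which was established from multiple myeloma, a cancer of antibody-secreting plasma cells. One group of cultures received 350 nM JG342, which inhibits the chaperone HSP70 allosterically, and the other received the solvent DMSO; treatment lasted 26 h in both, in the same medium. Each group has 2 libraries, described by the submitters as biological duplicates of 1 cell line, so the p-values measure the spread between duplicates of that line only.

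When eIF2 kinases sense misfolded protein in the endoplasmic reticulum, missing amino acids or mitochondrial damage, they phosphorylate the initiation factor eIF2, which slows protein synthesis in general and favours translation of ATF4. ATF4 is a bZIP factor that pairs with C/EBP proteins and switches on DDIT3, ATF3, TRIB3 and genes of amino acid supply. ATF6 belongs to another arm: it is held in the endoplasmic reticulum membrane and is cut free when folding fails. The Tribbles proteins lack normal kinase activity and act as scaffolds, TRIB1 and TRIB2 by bringing the ubiquitin ligase COP1 to C/EBP factors and TRIB3 by binding ATF4, CHOP and AKT. ATF4, ATF5 and CHOP are controlled in large part at translation, which transcript levels do not show.

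Values are TPM, that is, reads per transcript length scaled to a constant library total. The libraries summed to between 994463 and 994718 TPM, and TPM does not keep the number of reads behind a value. Between 1118 and 1418 of the 16057 genes were listed at 0, the fewest in JG342 replicate 2. The 8 plasma cell markers that were listed, among them SDC1 and TNFRSF17, had means above 1 TPM and summed to 4187 to 4928 TPM in DMSO and to 4598 and 4936 TPM in JG342. The plasma cell genes IRF4 and PRDM1 passed the test described below as higher after JG342 and TNFRSF17 as lower. Markers of other blood and epithelial cells were mostly low. The T cell genes CD3E and CD3G summed to 9.48 and 12.8 TPM in DMSO and to 14.6 and 11.1 TPM in JG342. Monocyte genes (nearly all LYZ) summed to 37.4 to 46.2 TPM over the libraries, erythroid genes to 7.71 to 11.7 TPM and epithelial genes to 4.42 to 8.56 TPM. LYZ, at a mean of 41.8 TPM over all libraries, was above the plasma cell marker CD38 (26.2 TPM). CD3G passed as higher (log2 fold change 0.80), and CD3E had a log2 fold change of −0.55 and did not pass (limma adjusted p 0.132). The part of these markers in the results was not tested. In bulk RNA, a change in the number of cells that express a gene and a change in RNA per cell cannot be told apart.

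After JG342, 6 of the 10 genes were higher: TRIB3, DDIT3, CEBPB, ATF3, CEBPG and ATF4, in order of their change. ATF5, ATF6, TRIB1 and TRIB2 did not pass the test, and none of the 10 passed as lower. The test was limma on log2(TPM + 1) over the 12042 genes whose mean reached 1 TPM, with a Benjamini-Hochberg adjusted p under 0.05 as the threshold; all 10 genes reached the minimum. Of those 12042 genes, 18.4% passed in either direction, 10.8% as higher and 7.62% as lower. Higher genes made up 58.7% of those that passed, and 44.6% after scaling the libraries to equal medians, where the same number of the 10 genes passed. Both JG342 values lay above both DMSO values for 7 of the 10 genes, the 6 named above and TRIB1, against 34.0% of the genes tested; groups that did not overlap in either direction made up 62.1%. Each of the 6 rose by more than 1 on the log2 scale, which 2.31% of the genes tested did while passing. The median log2 fold change of the 10 genes was 1.32, beside 0.03 over all genes tested. Since the genes were proposed with results of these data known, these shares describe them and are not a test of the group.

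**Figure D1:**
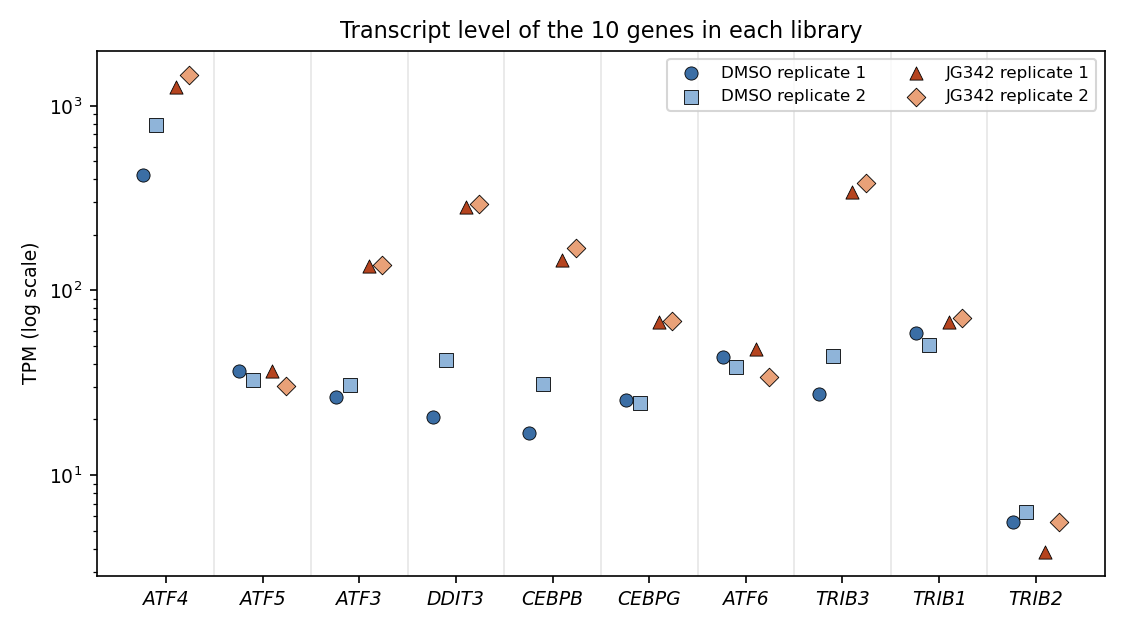
TPM on a log axis of each gene (horizontal axis) in the 4 libraries; each point is 1 library. For ATF4, ATF3, DDIT3, CEBPB, CEBPG, TRIB3 and TRIB1 both JG342 points lie above both DMSO points, whereas ATF5, ATF6 and TRIB2 overlap.

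ATF4 (NM_001675) was the most abundant of the 10 genes in every library. Its level was 420 TPM in DMSO replicate 1, 788 TPM in DMSO replicate 2, 1269 TPM in JG342 replicate 1 and 1476 TPM in JG342 replicate 2. The groups did not overlap, although the DMSO libraries themselves differed 1.88-fold. ATF4 rose by 1.25 ± 0.24 on the log2 scale (limma estimate ± SE, adjusted p 0.009), from 604 ± 260 TPM (SD, n = 2) to 1373 ± 147 TPM. The rise was 3.02-fold between the libraries numbered 1 and 1.87-fold between those numbered 2. When genes of low level were kept in the fit, ATF4 no longer passed (limma adjusted p 0.0917, log2 fold change 1.25). Part of the ATF4 transcript (52.3%) matches the processed pseudogene ATF4P3 at 97.5% identity, and 52.1% matches ATF4P4 at 96.9%, so some of its reads could have been shared with these copies.

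ATF5 (NM_001193646) encodes the bZIP factor closest to ATF4, linked to the stress response of mitochondria. It stood at 36.6 and 32.5 TPM in DMSO replicates 1 and 2 and at 36.8 and 30.3 TPM in JG342 replicates 1 and 2. The groups overlapped fully, with the higher value in replicate 1 of each. The log2 fold change was −0.05 ± 0.13 (limma adjusted p 0.844). Of the bases in ATF5 exons, 21.2% also lie in exons of NUP62 on the opposite strand. NUP62, a nuclear pore gene, stood at 136 and 141 TPM in DMSO and 108 and 104 TPM in JG342 and fell by 0.38 on the log2 scale (limma adjusted p 0.024). Whether reads were counted by strand is not given in the sources used here, so reads of these partners may not be separated.

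ATF3 (NM_001030287), a stress-induced bZIP factor that can repress its targets, had JG342 replicates within a few percent of each other. Its level was 26.5 and 30.8 TPM in DMSO and 135 and 138 TPM in JG342, replicate 1 first. The lowest JG342 value was far above the highest DMSO value. ATF3 rose 5.09-fold between libraries numbered 1 and 4.49-fold between those numbered 2, with a log2 fold change of 2.22 ± 0.11 (limma adjusted p 3.03e-05).

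DDIT3 (NM_001195053) encodes CHOP, a factor that drives cell death genes when stress persists. It was listed at 20.7 TPM in DMSO replicate 1, 41.9 TPM in DMSO replicate 2, 283 TPM in JG342 replicate 1 and 295 TPM in JG342 replicate 2. The JG342 libraries were close to each other, and the DMSO libraries differed 2.02-fold. DDIT3 rose by 3.25 ± 0.25 (limma adjusted p 0.000141), which is 13.7-fold between libraries numbered 1 and 7.04-fold between those numbered 2. It ranked 11 by size of rise among the 12042 genes tested. The exons of DDIT3 overlap those of MARS, the methionyl-tRNA synthetase gene on the opposite strand, over 27.2% of their bases. MARS was at 96.1 and 140 TPM in DMSO and at 268 and 261 TPM in JG342, a rise of 1.18 ± 0.16 (limma adjusted p 0.00204), so both partners of the overlap rose, and reads of the pair may not be separated. MBD6, also on the opposite strand, shares 4.44% of the bases in DDIT3 exons and rose by 0.935 (limma adjusted p 0.0152). AC022506.1 shares 8.03% on the same strand and has no value in these data.

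CEBPB (NM_001285878) and CEBPG (NM_001252296) encode C/EBP factors that form dimers with ATF4; the CEBPG protein has no activation domain of its own. CEBPB was at 16.9 and 31.3 TPM in DMSO and at 147 and 170 TPM in JG342, replicate 1 first. The groups were well apart, with a spread of 1.85-fold between the DMSO libraries. CEBPB rose by 2.73 ± 0.23 (limma adjusted p 0.000223), 8.69-fold and 5.43-fold in the libraries numbered 1 and 2. CEBPG was at 25.5 and 24.7 TPM in DMSO and at 67.6 and 68.2 TPM in JG342, the closest agreement between replicates of the 10 genes in both groups. It rose by 1.40 ± 0.11 (limma adjusted p 0.000124), 2.65-fold and 2.77-fold. The 3 remaining C/EBP genes of the bZIP class, CEBPA, CEBPD and CEBPE, had 0 TPM in each DMSO library and at most 0.18 TPM in JG342. An antisense gene, CEBPB-AS1, covers 11.8% of the CEBPB exon.

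ATF6 (NM_007348) was at 43.8 and 38.4 TPM in DMSO and at 48.4 and 34.0 TPM in JG342. The JG342 values bracket the DMSO values. The log2 fold change was −0.02 ± 0.16 (limma adjusted p 0.96). ATF6 protein acts after it is cut, a step that its transcript level does not show.

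TRIB3 (NM_001301188), a target of ATF4 and CHOP whose protein holds both in check, had the largest change of the 10 genes. It was at 27.5 TPM in DMSO replicate 1, 44.4 TPM in DMSO replicate 2, 343 TPM in JG342 replicate 1 and 384 TPM in JG342 replicate 2. No JG342 value came near the DMSO range. TRIB3 rose by 3.34 ± 0.19 (limma adjusted p 3.76e-05), 12.4-fold and 8.64-fold in the libraries numbered 1 and 2, and ranked 9 by size of rise among the genes tested. In order of level within a library, it moved from place 5001 and 3559 in DMSO to place 385 and 341 in JG342.

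The other Tribbles genes did not follow TRIB3. TRIB1 (NM_001282985) was at 59.0 and 50.8 TPM in DMSO and at 67.8 and 71.4 TPM in JG342. Both JG342 values were above both DMSO values, with a log2 fold change of 0.34 ± 0.11 (limma adjusted p 0.0671). TRIB1 passed when the replicate number was a block (limma adjusted p 0.00415), a fit in which 7 of the 10 genes and 34.9% of all genes passed. The errors of that fit come wholly from variance shared across genes, not from each gene's own spread. TRIB1 did not pass when the block was combined with scaling to equal medians (limma adjusted p 0.076). TRIB2 (NM_021643) was the lowest of the 10 genes, at 5.57 and 6.31 TPM in DMSO and at 3.84 and 5.60 TPM in JG342. Its groups overlapped, and the log2 fold change was −0.29 ± 0.19 (limma adjusted p 0.325).

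**Figure D2:**
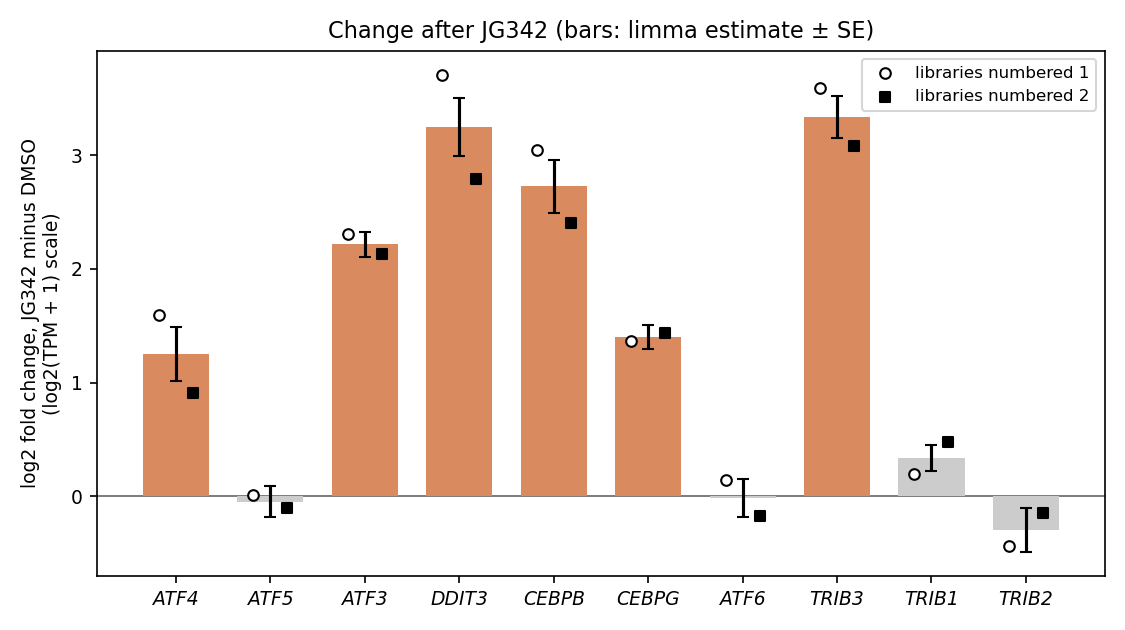
log2 fold change of each gene, JG342 minus DMSO, on the log2(TPM + 1) scale; bars are limma estimates with SE, coloured where the adjusted p was under 0.05, circles and squares are the differences between the libraries numbered 1 and numbered 2. TRIB3 (3.34) and DDIT3 (3.25) are the tallest bars. The circle lies above the square for ATF4, ATF5, ATF3, DDIT3, CEBPB, ATF6 and TRIB3, and below it for CEBPG, TRIB1 and TRIB2.

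The DMSO libraries differed in several of these genes. ATF4, DDIT3, CEBPB and TRIB3 stood 1.61-fold to 2.02-fold above DMSO replicate 1 in DMSO replicate 2. On the log2(TPM + 1) scale these were the 4 of 10 genes that exceeded a ratio of 1.5 (a limit chosen after the values were seen), which 1.81% of the genes tested did. ATF3 stood 1.16-fold higher and CEBPG 0.966-fold in the same comparison. In the JG342 libraries none of the 10 genes exceeded that ratio on this scale, against 1.78% of the genes tested. Without DMSO replicate 1 the log2 fold change of ATF4 was 0.80, and without DMSO replicate 2 it was 1.70; both still passed.

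The order of the levels changed with treatment. In DMSO the mean levels ran from ATF4 (604 TPM) through TRIB1 (54.9), ATF6 (41.1), TRIB3 (36.0), ATF5 (34.6), DDIT3 (31.3), ATF3 (28.6), CEBPG (25.1) and CEBPB (24.1) to TRIB2 (5.94). In that order the neighbours from ATF6 to ATF3 overlapped in pairs, as did CEBPG and CEBPB, so that 5 of 9 neighbouring pairs were not apart. In JG342 the order was ATF4 (1373 TPM), TRIB3 (363), DDIT3 (289), CEBPB (158), ATF3 (137), TRIB1 (69.6), CEBPG (67.9), ATF6 (41.2), ATF5 (33.6) and TRIB2 (4.72). There 2 of 9 neighbouring pairs overlapped, TRIB1 with CEBPG and ATF6 with ATF5.

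Ratios of 2 genes within a library hardly depend on how libraries are scaled to each other. For 7 ratios the JG342 and DMSO libraries were set against each other with an exact two-sided permutation test, which in 2 against 2 libraries cannot give a p below 0.33; every ratio reached that value (0.33 after adjustment over the 7), since no ratio overlapped between groups. TRIB3 stood at 0.466 and 0.874 times the TPM of TRIB1 in DMSO replicates 1 and 2 and at 5.06 and 5.38 times in JG342. DDIT3 was 0.0493 and 0.0532 times ATF4 in DMSO and 0.223 and 0.200 times in JG342, a shift of 2.00 in the log2 ratio and the one with the closest DMSO replicates. Between the DMSO libraries DDIT3 and ATF4 differed by nearly the same factor, 2.02-fold and 1.88-fold. CEBPB was 0.663 and 1.27 times CEBPG in DMSO and 2.18 and 2.49 times in JG342. ATF5 fell behind ATF4, from 0.0872 and 0.0413 times in DMSO to 0.0290 and 0.0205 times in JG342. The shift of the remaining log2 ratios was 3.63 for TRIB3 to TRIB2, 0.97 for ATF3 to ATF4 and 1.26 for ATF4 to ATF6. Single DMSO libraries weighed on several of these shifts. Without DMSO replicate 1 the shift was 0.72 for ATF4 to ATF6, −0.76 in place of −1.29 for ATF5 to ATF4, and 0.88 in place of 1.32 for CEBPB to CEBPG. Without DMSO replicate 2 it was 0.62 for ATF3 to ATF4.

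**Figure D3:**
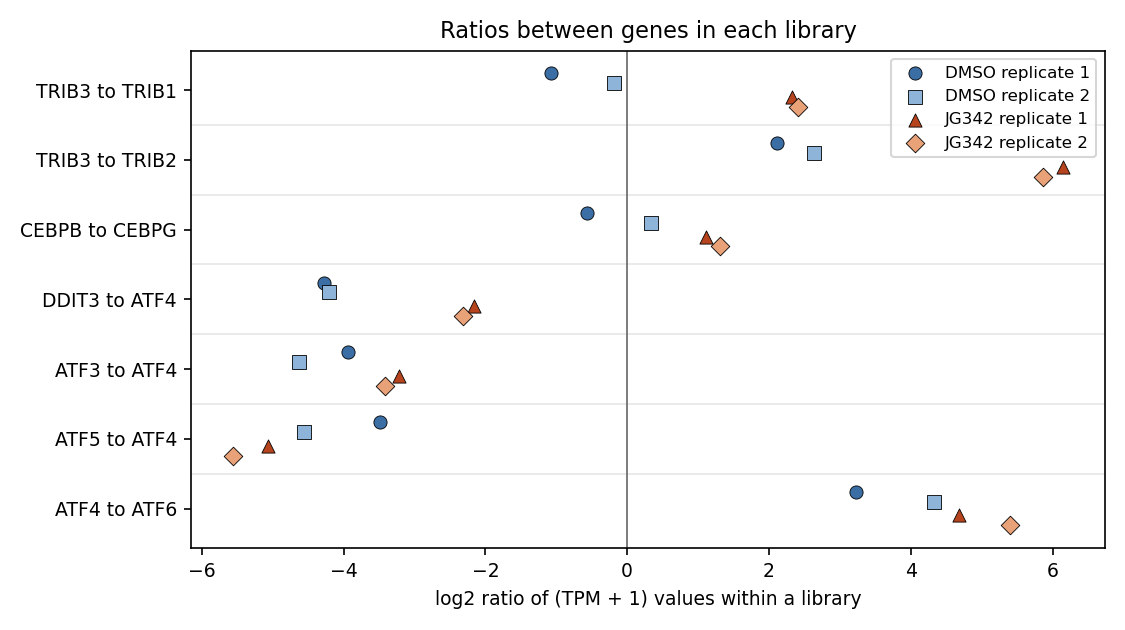
log2 ratio of (TPM + 1) values between gene pairs (vertical axis), 1 point per library. The JG342 points lie to the right of both DMSO points for each ratio except ATF5 to ATF4, where they lie to the left; DDIT3 to ATF4 has the closest DMSO points.

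Dimers of ATF4 and C/EBP proteins bind the C/EBP-ATF response element, and promoter sequences show where its letters occur near these genes. Windows from 250 bases before to 50 bases after each listed start were taken from RefSeq (GRCh38.p14), and TGATGNAA was searched on both strands. It occurred in 3.62% of 35116 windows and in at least 1 window of 4.46% of genes. Among the 10 genes, 9 had windows and TRIB1 had none. The letters were in 2 genes: ATF3, 191 bases before the start at 212565407, and CEBPG, 42 bases before the start at 33374113. Each of these genes has 2 listed starts, and the other window of each does not hold the letters. Both rose after JG342. The letters were not in the windows of TRIB3, DDIT3, CEBPB or ATF4, and elements outside these windows were not searched. Of the ATF4 targets listed below, 10 of 28 with a window held it, and 9 of those 10 passed as higher. The remaining target, FGF21, was too low to be tested. JDP2 is among the 9 but met the minimum level only through the JG342 libraries, so its test is no support. Of the 17 tested targets whose windows lack it, 14 also passed as higher, beside 10.8% of all genes tested. The same limit holds for GDF15, which is among those 14. Most targets thus passed with or without the letters. The stretches below show the element in capitals for the members that have it and for 3 of the targets. ASNS and CHAC1 were chosen for display after their values were seen. The sequences read 5′ to 3′ on the strand of the gene, at chr1:212565170-212565269 (plus strand) for ATF3, chr19:33374025-33374112 (plus) for CEBPG, chr14:75427995-75428024 (plus) for JDP2, chr7:97872458-97872487 (minus) for ASNS and chr15:40953251-40953280 (plus) for CHAC1, where the element lies on the opposite strand. The ATF3 and CEBPG stretches lie outside the exons of these genes in GENCODE release 29.
ATF3: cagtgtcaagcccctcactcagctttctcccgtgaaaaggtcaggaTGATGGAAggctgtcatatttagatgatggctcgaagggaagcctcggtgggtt
CEBPG: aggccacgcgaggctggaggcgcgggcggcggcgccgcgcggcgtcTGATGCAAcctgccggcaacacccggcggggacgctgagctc
JDP2: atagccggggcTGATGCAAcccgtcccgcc
ASNS: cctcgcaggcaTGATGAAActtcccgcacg
CHAC1: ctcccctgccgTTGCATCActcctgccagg

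Other motifs were searched on both strands in the same way. The AP-1 site TGANTCA was in windows of DDIT3 and ATF5 (7.71% of all windows), the C/EBP site TTGCNNAA in windows of ATF3 and ATF5 (10.5%), and the cAMP response element TGACGTCA (1.85%) in none. No match of one motif overlapped a match of another in the windows of these 9 genes. The endoplasmic reticulum stress response element, to which ATF6 binds, was in 0.0769% of windows. None of the 9 genes with a window held it, but 6 of the 14 ATF6 targets listed below did. Of those 6, HSPA5 and CRELD2 passed as higher and HSP90B1, PDIA6, CALR and XBP1 did not pass. Among the 8 targets without it, 3 passed as higher, HERPUD1 among them. Of the 14 ATF6 targets, HERPUD1 alone held the C/EBP-ATF response element in a window.

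The known targets of these factors were read from the same fit. Of 34 listed ATF4 targets in the table, 31 reached the minimum level and 28 of them passed as higher, none as lower, with a median log2 fold change of 1.55. Among all genes tested, 10.8% passed as higher. The targets with the smallest p were CBS, which makes cystathionine (rise of 4.49 ± 0.26), PCK2, the mitochondrial phosphoenolpyruvate carboxykinase (3.09 ± 0.18), SESN2, an inhibitor of mTORC1 signalling (2.72 ± 0.17), and GDF15, a secreted stress factor (3.30 ± 0.22); their limma adjusted p lay between 3.76e-05 and 5.92e-05. Reads of CBS may be shared with its near-identical copy CBSL. GDF15 was low in DMSO, at 0.15 and 0.31 TPM, and reached 9.14 and 13.5 TPM in JG342. It met the minimum level only through the JG342 libraries, as did JDP2 on this list, so the tests of these genes are no support, and the log2 change of GDF15 was 5.13 with a pseudocount of 0.1. The 3 that did not pass were CTH, VLDLR and SLC7A5, with log2 fold changes of 0.47, 0.25 and 0.51. In the fit with a replicate block, whose errors ignore each gene's own spread, CTH (limma adjusted p 0.0399) and SLC7A5 (2.03e-07) passed. SLC7A5 also passed with the block and equal medians (limma adjusted p 0.0117). As for ATF4 itself, DMSO replicate 2 exceeded DMSO replicate 1 in 31 of the 34 targets, and in 58.9% of the 12042 genes tested.

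Targets of CHOP also passed in most cases, 5 of the 6 tested and none as lower, with a median log2 fold change of 1.60. Of all genes tested, 10.8% passed as higher. TNFRSF10B, the death receptor DR5, was at 20.8 and 19.2 TPM in DMSO and 72.9 and 67.8 TPM in JG342, a rise of 1.77 ± 0.11 (limma adjusted p 4.97e-05). PPP1R15A, which brings a phosphatase to eIF2 and so reverses the block of translation, rose by 2.04 ± 0.16 (limma adjusted p 0.000137). GADD45A, a growth arrest gene, and BBC3, which encodes the cell death protein PUMA, rose by 1.01 and 1.44. ERO1A, an oxidase of the endoplasmic reticulum, did not pass, with a log2 fold change of −0.05 ± 0.12 (limma adjusted p 0.795). The ATF4 and CHOP lists share CHAC1, which rose by 3.34 ± 0.66 (limma adjusted p 0.0102) and whose DMSO libraries lay far apart, at 3.53 and 28.3 TPM.

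Of 14 ATF6 targets, 5 passed as higher and none as lower, with a median of 0.25. That share is 35.7%, beside 18.4% of all genes tested in either direction and 10.8% as higher. In the fit with a replicate block, whose errors ignore each gene's own spread, 9 ATF6 targets passed, beside 34.9% of all genes tested. Of those 9, 8 passed as higher. CALR, a chaperone with a log2 fold change of −0.33, passed as lower (limma adjusted p 6.76e-05, and 0.0169 with equal medians as well). HERPUD1, a membrane protein of endoplasmic reticulum-associated degradation, rose by 0.95 ± 0.10, HYOU1, a chaperone of the endoplasmic reticulum, by 0.83 ± 0.10, SEL1L, part of the degradation complex, by 1.03 ± 0.14 and the chaperone HSPA5 by 0.47 ± 0.10 (limma adjusted p 0.000694, 0.00135, 0.00231 and 0.0158). HSPA5 did not pass without the filter on low values (limma adjusted p 0.0758), without a variance trend (0.0644) or without DMSO replicate 1 (0.128). The difference between the ATF4 and ATF6 lists was not tested.

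**Figure D4:**
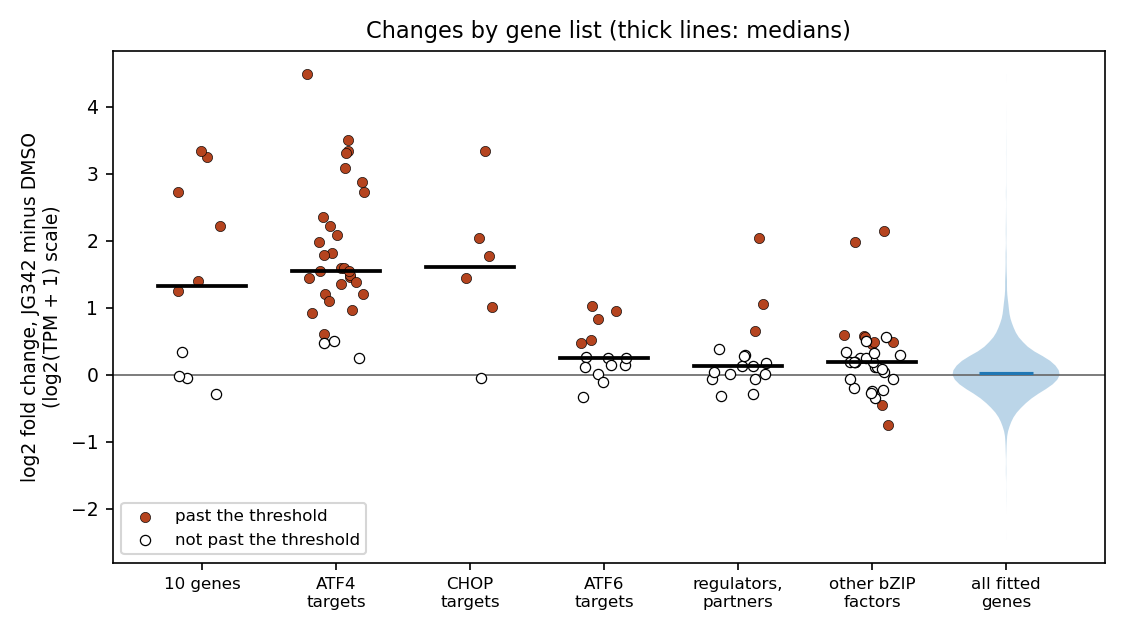
log2 fold changes, JG342 minus DMSO, of the 10 genes and of the listed targets, regulators and other bZIP factors (1 point per tested gene, filled where past the threshold, thick line at the median), beside the distribution over all tested genes. The ATF4 targets (median 1.55) and CHOP targets (median 1.60) lie mostly above 1, and the ATF6 targets (median 0.25) mostly below 1.

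Most upstream regulators and partners of the 10 genes did not pass. Of all genes tested, 18.4% passed in either direction and 10.8% as higher. Of 16 listed, 3 (18.8%) passed as higher and none as lower. They were PPP1R15A (above), EIF2AK4, which encodes the amino acid sensing eIF2 kinase GCN2 and rose by 1.06 ± 0.13 (limma adjusted p 0.00131), and STK40, a relative of the Tribbles genes, which rose by 0.65 ± 0.15 (limma adjusted p 0.0189). STK40 did not pass under 4 alternatives: without the filter on low values (limma adjusted p 0.0988), without a variance trend (0.0582), without DMSO replicate 1 (0.103, with the log2 fold change down to 0.42) and without JG342 replicate 1 (0.0532). The kinase genes EIF2AK1, EIF2AK2 and EIF2AK3 had log2 fold changes of 0.14, −0.28 and 0.13 and did not pass. COP1, the ligase that TRIB1 and TRIB2 recruit, was at 47.7 and 45.0 TPM in DMSO and 43.5 and 45.3 TPM in JG342, and AKT1 and AKT2 had log2 fold changes of −0.06 and 0.0054; none of these genes passed.

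The rest of the bZIP class was mixed. Of 41 further bZIP genes in the table, 33 were tested, 8 passed as higher and 2 as lower, with a median of 0.19. The share that passed was 30.3%, beside 18.4% of all genes tested (10.8% as higher and 7.62% as lower). NFE2L1, whose factor restores proteasome genes, was at 87.1 and 89.0 TPM in DMSO and at 448 and 343 TPM in JG342, a rise of 2.14 ± 0.13 (limma adjusted p 4.23e-05). JDP2, a repressor related to ATF3, was listed at 0.06 and 0.79 TPM in DMSO and 4.53 and 4.34 TPM in JG342, and rose by 1.98 ± 0.27 (limma adjusted p 0.00217); it also belongs to the ATF4 target list. JDP2 met the minimum level only through the JG342 libraries, so its test is no support, although the share of 30.3% counts it. Its log2 change was 3.59 with a pseudocount of 0.1. NFIL3, a repressor known from lymphocytes, rose by 0.56 ± 0.11 (limma adjusted p 0.0102), and JUNB, an AP-1 subunit, fell by 0.74 on the log2 scale (SE 0.12, limma adjusted p 0.00516). By the mean over all 4 libraries, the most abundant of the class were XBP1, the plasma cell and unfolded protein response factor, which did not pass (log2 fold change 0.12 ± 0.12, limma adjusted p 0.527), then MAF, a factor overexpressed in a subset of myelomas, which fell by 0.46 (SE 0.13, limma adjusted p 0.0417), and NFE2L1. That order is not the same within groups: NFE2L1, at a mean of 395 TPM, was above MAF (237 TPM) in JG342, and in DMSO, at 88.0 TPM, it was below NFIL3 (152 TPM) among others. MAF lost its call under 6 of 12 alternatives, among them leaving out DMSO replicate 1 (limma adjusted p 0.146), DMSO replicate 2 (0.156) or JG342 replicate 2 (0.173). Its log2 fold change was −0.45 and −0.46 without the DMSO libraries in turn and −0.25 without JG342 replicate 2. NFIL3 lost it without the filter on low values (0.0604) and without DMSO replicate 2 (0.0867). The count of 10 called bZIP genes was 5 without DMSO replicate 1 and 3 without DMSO replicate 2.

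**Figure D5:**
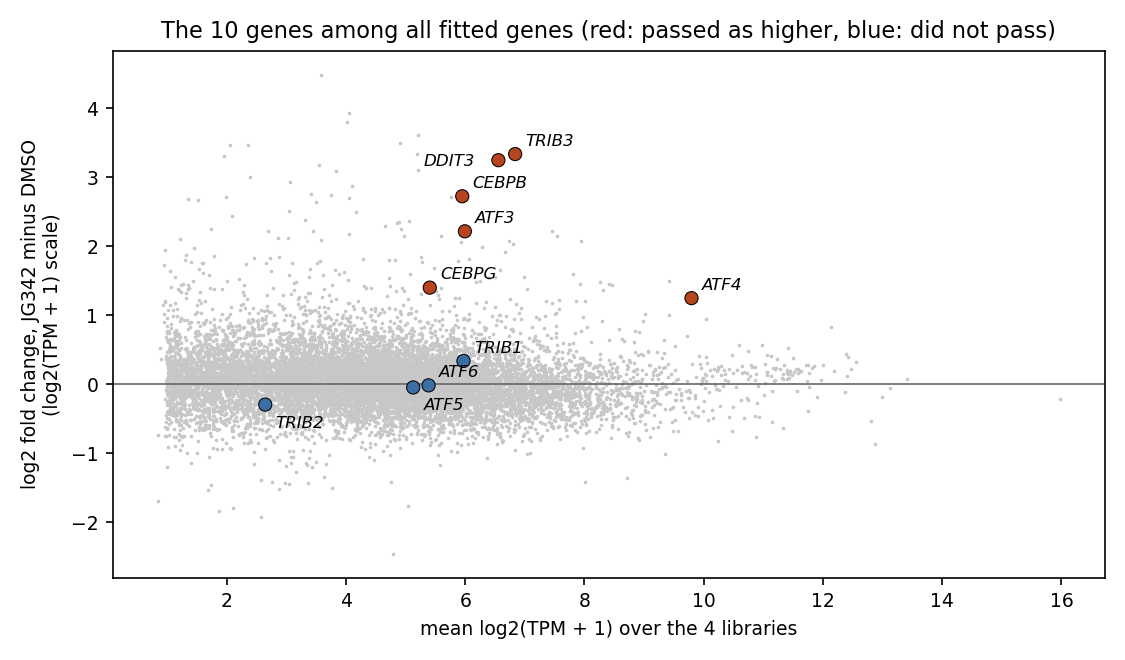
log2 fold change, JG342 minus DMSO, against mean log2(TPM + 1) over the 4 libraries for all 12042 tested genes (grey), with the 10 genes marked in red where they passed as higher and in blue where they did not pass. ATF4 lies at the high end of expression with a rise of 1.25, and TRIB3, DDIT3 and CEBPB lie at the upper edge of the cloud.

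Likeness to each of 5 members was measured as the Euclidean distance between log2(TPM + 1) values, centred on their mean, over the 4 libraries, among 9804 other genes whose mean reached 5 TPM. The genes most like ATF4 were MTHFD2 (distance 0.192), GARS (0.239) and PSPH (0.241), all of them on the ATF4 target list. Nearest to ATF3 were SLC35F1 (0.0712), PFN2 (0.111) and FAM129A (0.171). PIP5KL1 (0.257) and ADM2 (0.388) lay near DDIT3, and ERICH2 (0.246) and PCK2 (0.305) near TRIB3. NDUFA4L2 lay near both (0.25 to DDIT3 and 0.374 to TRIB3). ERICH2, PCK2 and NDUFA4L2 were under 5 TPM in both DMSO libraries, with NDUFA4L2 at 0.34 and 1.55 TPM. They met the minimum only through the JG342 libraries, so they were searched only because they rose. Their likeness to DDIT3 or TRIB3 is therefore no support. ATF5, whose values hardly varied, lay within 0.0261 of TBPL1, TTL and BCL9. With 4 libraries these distances only describe the profiles.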

How the data were processed

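Per the submitters' processing notes, HISAT2 2.0.4, Bowtie2 2.2.5 and RSEM 1.2.12 were used; their roles, the genome build, the annotation, the filters and any strand setting are not given in the sources used here. The authors deposited 1 TPM value per gene and library; the unit was read from the column totals, between 994463 and 994718, and from RSEM, since no header names it. Reads are not recoverable from TPM, so no counting intervals are given and no count model was used. Libraries were matched to groups by title.

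Values were analysed as log2(TPM + 1). Of 16057 genes, 4015 with a mean under 1 TPM were left out, and 12042 were fitted with limma 3.58.1 in R 4.3.3 (lmFit, eBayes with a mean-variance trend, treatment as the only term; two-sided, Benjamini-Hochberg over all fitted genes, threshold 0.05). Fold changes on this scale understate changes of low genes. In simulated data with 200 changed genes of 12042, all changes of 1 and 2 on the log2 scale and 68.7% of those of 0.5 were recovered, and 5.79% of calls were false. The simulated noise was independent between libraries, and its spread depended on the level of a gene alone. The data had 2221 genes past the threshold and deviations shared by same-numbered libraries, so these rates do not carry over to them. The members, the lists, the alternatives and the rules were chosen with earlier results of these data known. Named genes are all members, up to 4 genes with the smallest p past the threshold in each list, the 3 most abundant other bZIP genes, and the 3 genes nearest to ATF4, ATF5, ATF3, DDIT3 and TRIB3. Genes named outside this rule, such as MARS, NUP62, CHAC1, ASNS, CRELD2, CTH and COP1, were named after their values were seen. Overlapping exons and close copies (BLAST 2.17.0, at least 95% identity over at least 20% of the transcript) came from GENCODE release 29, and promoters from RefSeq. A table of protein sequences was not used here. Some values of the listed genes are not reported here.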

Additional observations from a re-analysis of the deposited data

How the results depend on the processing

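TRIB3, DDIT3, CEBPB, ATF3 and CEBPG passed under each of the 12 alternatives, and ATF4 under 11 of 12. ATF5, ATF6 and TRIB2 passed under none. The number of members past the threshold stayed between 5 and 7. Leaving out 1 library gave between 767 and 1825 genes past the threshold in place of 2221, between 3 and 10 of the other bZIP genes in place of 10, and ATF4 changes from 0.80 to 1.70. Where a library is left out, its group has 1 sample, which is assumed to vary like the other group. TRIB1 and TRIB2 kept their sign when 1 library was left out. Among the members and the genes named by the rule above, 6 that did not pass changed sign. Genes named outside that rule were not counted. Over these fits ATF5 ranged from −0.182 to 0.0905, ATF6 from −0.263 to 0.232 and BCL9 from −0.179 to 0.0696. TBPL1 ranged from −0.177 to 0.0967, TTL from −0.191 to 0.103 and XBP1 from −0.00775 to 0.24. Without the filter on low values, 828 genes, 4 other bZIP genes and 3 ATF6 targets passed; without a variance trend, 3 ATF6 targets passed. The cause was not tested.

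Same-numbered libraries share a prefix in their descriptions, which the labels do not explain, and their deviations correlated across genes with an r of 0.275. In the fit with a replicate block, 4207 genes, 5 regulators and partners in place of 3 and 9 ATF6 targets in place of 5 passed. With the block and scaling to equal medians, 3985 genes, 5 regulators and partners and 6 ATF6 targets passed. Of the 5 regulators and partners in each fit, 4 had a log2 fold change above 0 without scaling. The other, EIF2S1, had a log2 fold change of −0.32 and passed as lower (limma adjusted p 0.0131, and 0.00904 with equal medians as well). Each fit with the block has 1 residual degree of freedom per gene. In the block fit without scaling, errors were taken wholly from the mean-variance trend across genes. Its p-values therefore ignore each gene's own spread. Scaling to equal medians moved the share of higher calls from 58.7% to 44.6% and shifted the median of all fold changes on the log2 scale from 0.03 to −0.03. Quantile normalization gave 50.8%. With 2 libraries per group the errors rest largely on variance shared across genes.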
